A study of Sus scrofa with 9 samples.

Results

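Immediate early genes are the genes a cell transcribes first after a stimulus, before any new protein has been made. Of 9 such genes looked for in pig skeletal muscle (FOS, FOSB, JUNB, EGR1, NR4A1, NR4A2, NR4A3, ATF3 and IER2), 6 were named as the only gene of a probe set in the platform's probe-to-gene table, and each of these had 1 probe set: FOS, EGR1, NR4A2, NR4A3, ATF3 and IER2. FOSB, JUNB and NR4A1 were not analysed here. The 6 genes stand among 12361 named genes and 27558 probe sets measured on each array.

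The muscle was the longissimus dorsi, the long back muscle, of 9 male finishing pigs that weighed about 95 kg at the start. Each pig received a diet deficient in lysine (pigs 1, 2 and 3), adequate in lysine (pigs 5, 6 and 7) or with lysine in excess (pigs 9, 10 and 11) for 5 weeks, and each muscle was hybridised to 1 array, so n is 3 pigs per diet throughout. The labels give no breed, genotype or exact age, no lysine content for the diets, and no batch. Muscle was collected at slaughter, and the labels state no time between slaughter and freezing. The comparisons ask how muscle transcripts differed with the dietary supply of lysine, an essential amino acid.

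Immediate early genes respond through regulators that are already present in the resting cell, chiefly serum response factor with its ternary complex partners and CREB, which are switched on by MAP kinases, calcium and cyclic AMP. Their messages are unstable, so their levels climb and fall within a short time of a stimulus. In skeletal muscle they are known to respond to contraction, stretch, adrenergic signals, injury and other stress. Most of their products are transcription factors: FOS joins JUN proteins in the AP-1 complex, EGR1 is a zinc finger factor, NR4A2 and NR4A3 are orphan nuclear receptors, and ATF3 is a stress-induced leucine zipper factor that also lies downstream of ATF4 in the amino acid response.

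The tissue label fitted the array values. Of 14 skeletal muscle fibre markers 6 were measured (ACTA1, MYH1, MYH7, MYLPF, ENO3 and TNNC2), and their log2 values lay between 12.34 and 13.28 in every pig. The values used below are on a log2 scale, which is inferred from their range of 3.10 to 14.30. The array of excess pig 11 stood apart: it correlated with the other arrays at 0.904 to 0.956, against 0.977 to 0.992 among the other 8. Excess pig 10 had the lowest array quality weight in limma, 0.192, beside 0.220 for excess pig 11 and 0.678 to 2.46 for the others. The differences of the 6 genes in deficient against excess pigs are also given without pig 11. In excess against adequate pigs their median and the values of FOS and NR4A2 are given without it. List medians that moved by over 1.5 times or changed sign are given without pig 11 as well.

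NR4A3, a nuclear receptor also known as NOR-1, had log2 values of 9.15, 7.93 and 9.38 in deficient pigs 1, 2 and 3, of 8.25, 7.24 and 6.86 in adequate pigs 5, 6 and 7, and of 7.90, 6.51 and 7.72 in excess pigs 9, 10 and 11. All 3 deficient pigs lay above all 3 excess pigs, while deficient pig 2 lay below adequate pig 5. The group means were 8.82 ± 0.78, 7.45 ± 0.72 and 7.38 ± 0.75 in deficient, adequate and excess pigs (SD, n = 3 each), so the adequate and excess means differed by far less than their spread.

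NR4A2, its close relative NURR1, had values of 7.02, 8.02 and 9.87 in the deficient pigs, of 9.22, 8.88 and 6.23 in the adequate pigs and of 8.49, 7.34 and 9.70 in the excess pigs. The groups overlapped across nearly their whole range, and deficient pig 1, high for NR4A3, was the second lowest of all pigs for NR4A2. The means of 8.31 ± 1.44, 8.11 ± 1.64 and 8.51 ± 1.18 in deficient, adequate and excess pigs (SD) did not differ beyond their spread. The highest pig of a diet lay 7.20-fold above the lowest in the deficient group, 7.92-fold in the adequate group and 5.13-fold in the excess group.

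FOS had values of 7.35, 7.36 and 9.30 in the deficient pigs, of 7.48, 7.62 and 6.05 in the adequate pigs and of 6.62, 5.55 and 8.06 in the excess pigs. Deficient pig 3 stood far above the other pigs of its group, and excess pig 11 above the other pigs of its own. The means were 8.01 ± 1.13, 7.05 ± 0.87 and 6.74 ± 1.26 in deficient, adequate and excess pigs (SD), and the 3 groups overlapped.

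EGR1 had values of 7.35, 6.63 and 6.99 in the deficient pigs, of 7.18, 6.05 and 6.35 in the adequate pigs and of 6.44, 5.49 and 5.98 in the excess pigs. Every deficient pig lay above every excess pig, and adequate pig 5 lay among the deficient pigs. The means of 6.99 ± 0.36, 6.53 ± 0.59 and 5.97 ± 0.48 in deficient, adequate and excess pigs (SD) went down with each step in lysine, with neighbouring groups overlapping.

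ATF3 had values of 11.02, 11.18 and 12.32 in the deficient pigs, of 12.15, 8.36 and 10.76 in the adequate pigs and of 10.63, 8.90 and 10.07 in the excess pigs. The deficient pigs all lay above the excess pigs, but adequate pigs 5 and 6 differed by 13.8-fold and spanned nearly the whole range of the 9 pigs. The means were 11.51 ± 0.71, 10.42 ± 1.92 and 9.87 ± 0.88 in deficient, adequate and excess pigs (SD).

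IER2, a small nuclear protein of the growth factor response, had values of 4.01, 4.11 and 4.23 in the deficient pigs, of 4.06, 4.16 and 4.07 in the adequate pigs and of 4.06, 3.95 and 3.86 in the excess pigs. All 9 values lay below the median level of all probe sets, 5.07, and whether the probe set rose above background was not tested, so its narrow spread is no measure of a steady transcript. Adequate pig 5 and excess pig 9 had the same value to the last digit deposited, as 41.3% of all probe sets had on at least 2 arrays.

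**Figure D1:**
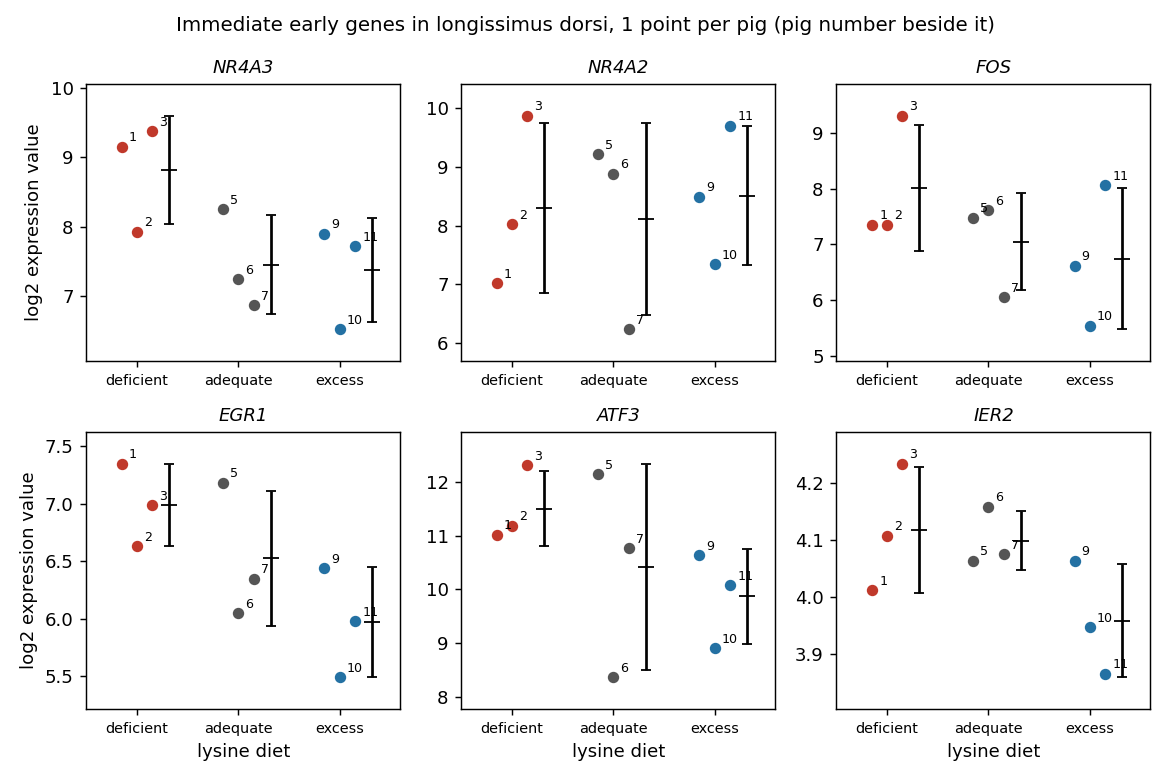
Log2 expression value (vertical axis, scaled separately for each gene) of 6 immediate early genes in each pig, by lysine diet from deficient to excess (horizontal axis). Points are pigs with their numbers, and the bars beside them are the mean and SD of 3 pigs. NR4A3, EGR1 and ATF3 are higher in every deficient pig than in every excess pig, while the diets overlap for NR4A2, FOS and IER2.

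Individual pigs held much of the variation. Deficient pig 3 had the highest value of all 9 pigs for 5 of the 6 genes and was among the top 3 for all 6, with a median of 1.53 on the log2 scale above the gene means. Excess pig 10 was among the bottom 3 for all 6 genes and the lowest for 3 of them (FOS, EGR1 and NR4A3), with a median of -1.19. Its array had the lowest quality weight of the 9 (0.192), and what lies behind its low values was not tested. Adequate pig 5 was among the top 3 for 4 genes, with a median of 0.53 above the gene means, whereas adequate pig 7 was among the bottom 3 for 3 genes, with a median of -0.58. Excess pig 11 was split: it was the second highest pig for NR4A2 and FOS and among the bottom 3 for EGR1, ATF3 and IER2.

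**Figure D2:**
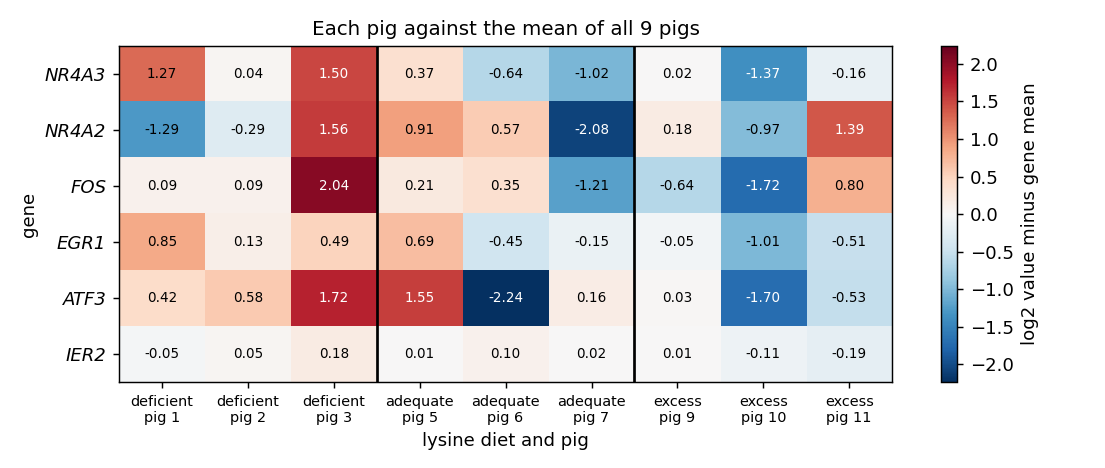
Log2 value of each gene (rows) in each pig (columns, grouped by lysine diet from deficient to excess) minus the mean of that gene over the 9 pigs, as colour and number. Deficient pig 3 is above the mean for every gene and excess pig 10 below it for every gene, and in deficient pig 1 NR4A3 and NR4A2 have opposite signs (1.27 and -1.29).

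The spread between pigs fed the same diet was large for 5 of the 6 genes when set beside the rest of the array. The SD between pigs of the same diet was 1.43 for NR4A2, 1.28 for ATF3, 1.10 for FOS, 0.75 for NR4A3 and 0.48 for EGR1, against a median of 0.17 over all probe sets. NR4A2 was exceeded by only 137 of the 27558 probe sets, ATF3 by 208 and FOS by 331. Among the 2756 probe sets of the same expression level (10 bins of equal size), ATF3 lay at percentile 99.8, NR4A2 at 98.8, NR4A3 at 97.2, FOS at 96.2, EGR1 at 83.4 and IER2 at 52.5. Without excess pig 11 these SDs were 1.43 for NR4A2, 1.40 for ATF3, 0.96 for FOS, 0.80 for NR4A3 and 0.53 for EGR1. These are descriptions, and with 3 pigs per diet each SD is itself imprecise.

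**Figure D3:**
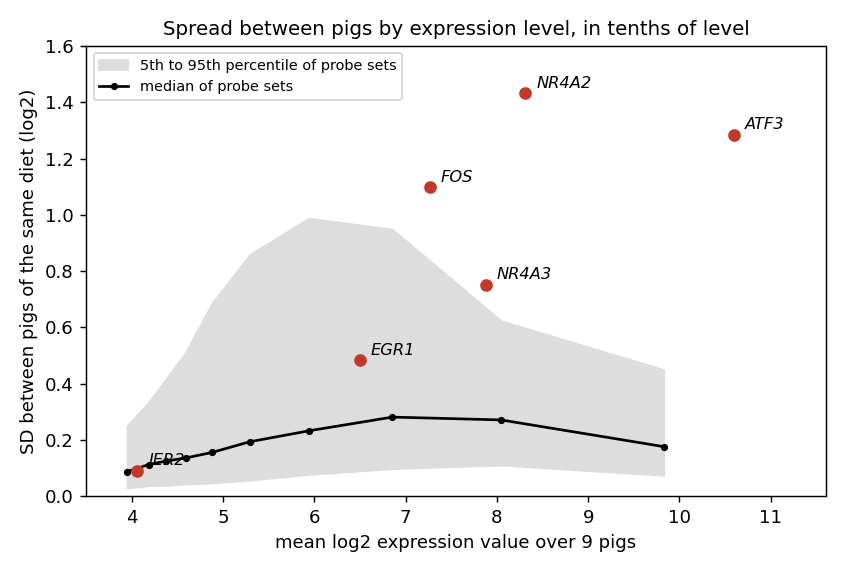
SD between pigs of the same diet on the log2 scale (vertical axis) against the mean log2 expression value over the 9 pigs (horizontal axis). The line is the median and the grey band the 5th to 95th percentile of all probe sets in 10 bins of level, and red points are the 6 genes. NR4A2, ATF3, FOS and NR4A3 lie above the band, EGR1 (SD 0.48) within it, and IER2 (SD 0.09) at the median of dim probe sets.

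The 6 genes did not all vary together across the 9 pigs. In 15 pairs Pearson's r ran from 0.0916 to 0.852, with a median of 0.423. EGR1 and NR4A3 had r = 0.852 (exact permutation p = 0.00423, and 0.0537 after Benjamini-Hochberg adjustment over the 15 pairs) and Spearman's rho = 0.883 (exact permutation p = 0.00308, adjusted 0.0338). EGR1 and ATF3 had r = 0.822 (exact permutation p = 0.00715, adjusted 0.0537) and rho = 0.817 (exact permutation p = 0.0108, adjusted 0.0404). NR4A3 and ATF3 had r = 0.726 (exact permutation p = 0.0264, adjusted 0.0792) and rho = 0.817 (exact permutation p = 0.0108, adjusted 0.0404). These 3 genes thus ranked the pigs alike, and none of the pairs passed on Pearson's r after adjustment.

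FOS followed NR4A2 instead, with r = 0.776 (exact permutation p = 0.0127, adjusted 0.0634) and rho = 0.867 (exact permutation p = 0.00451, adjusted 0.0338). FOS and NR4A3 had r = 0.762 (exact permutation p = 0.0171, adjusted 0.0642) but rho = 0.550 (exact permutation p = 0.133, adjusted 0.398). For the other pairs of these 5 genes r was 0.0916 for EGR1 and NR4A2, 0.202 for NR4A2 and ATF3, 0.404 for NR4A2 and NR4A3, 0.461 for FOS and ATF3 and 0.485 for FOS and EGR1. Leaving out the 2 pigs farthest from the median of the gene named first gave r = 0.698 for EGR1 and NR4A3, 0.885 for EGR1 and ATF3 and 0.754 for FOS and NR4A2. It gave 0.483 for NR4A3 and ATF3 and 0.359 for FOS and NR4A3. Leaving out the farthest pigs also narrows the range of values, so a lower r does not show that a relation rested on them. Over the 8 pigs without excess pig 11, the 5 values were 0.879, 0.826, 0.759, 0.726 and 0.811 in the same order. Without deficient pig 3, the highest pig for 5 of the 6 genes, they were 0.874, 0.809, 0.709, 0.624 and 0.609. With each gene taken as its deviation from the diet means, r was 0.842 for EGR1 and NR4A3, 0.758 for EGR1 and ATF3 and 0.935 for FOS and NR4A2, so these genes varied together within diets as well. The labels name no batch within which the relations could be computed again.

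Between deficient and adequate pigs, NR4A3 differed by 1.37 ± 0.54 on the log2 scale (± is the SE of a difference, here and below), which is 2.59-fold, ATF3 by 1.08 ± 0.93 (2.12-fold), FOS by 0.96 ± 0.79 (1.94-fold) and EGR1 by 0.46 ± 0.35 (1.38-fold). NR4A2 differed by 0.19 ± 1.03 and IER2 by 0.02 ± 0.08. All 6 differences were above 0, with a median of 0.71, beside a median of 0.01 over all probe sets, 52.9% of which were above 0. Without deficient pig 3 only 4 of the 6 were above 0 and the median was 0.38.

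None of the 6 genes passed the threshold in this comparison: the adjusted p was 1.00 for each (limma, Benjamini-Hochberg over all 27558 probe sets), where 0% of all probe sets passed. NR4A3 alone of the 6 had an unadjusted p below 0.05 (limma unadjusted p = 0.0371), a level that 0.842% of all probe sets reached in that direction and 1.01% in the other. The 95% confidence interval of its log2 difference ran from 0.11 to 2.64. Its limma unadjusted p was 0.104 without deficient pig 1, 0.118 without deficient pig 3, 0.0944 without adequate pig 6 and 0.120 without adequate pig 7. In 0 of the 6 genes did the 3 deficient pigs lie fully above the 3 adequate pigs, as they did for 3.77% of all probe sets, or fully below them, as for 3.07%.

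Single adequate and deficient pigs moved these differences. ATF3 differed by 0.05 without adequate pig 6 and by 1.94 without adequate pig 5, in place of 1.08. FOS differed by 0.31 without deficient pig 3 and by 0.46 without adequate pig 7, and EGR1 by 0.22 without adequate pig 6 and by 0.79 without adequate pig 5. NR4A2 changed sign, to -0.75 without adequate pig 7 and to -0.59 without deficient pig 3. NR4A3 stayed between 1.08 and 1.82 whichever deficient or adequate pig was left out.

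Between excess and adequate pigs, the genes differed little against their spread. EGR1 was 1.47-fold lower (log2 difference -0.56 ± 0.35), ATF3 1.47-fold lower (-0.56 ± 0.93) and FOS 1.24-fold lower (-0.31 ± 0.79). IER2 differed by -0.14 ± 0.08, NR4A3 by -0.07 ± 0.54 and NR4A2 by 0.40 ± 1.03. The median was -0.22, beside a median of 0.00 over all probe sets, and 5 of the 6 genes were below 0, where 50.2% of all probe sets were above 0.

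No gene of the 6 passed the threshold, with an adjusted p of 0.757 to 0.965 in limma, where 0% of all probe sets passed. None had an unadjusted p below 0.05, a level reached by 2.21% of all probe sets in the lower direction and 1.35% in the higher. None had its 3 excess pigs fully below its 3 adequate pigs, as 3.84% of all probe sets did, or fully above them, as 3.2% did. The 95% confidence interval for NR4A3, from -1.34 to 1.19, and that for NR4A2, from -2.01 to 2.80, include changes of over 2-fold either way, so a missing difference is not shown. Without excess pig 11 all 6 differences were below 0, with a median of -0.40. Without excess pig 10 the median was 0.11, and without adequate pig 5 it was 0.11 as well, so its sign rested on single pigs. FOS differed by -0.97 without excess pig 11 and by 0.29 without excess pig 10, and ATF3 by 0.31 without adequate pig 5 and by -1.59 without adequate pig 6. NR4A2 differed by -0.20 without excess pig 11.

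Between deficient and excess pigs, the extremes of lysine supply, all of the 6 genes but NR4A2 were higher in deficient pigs. The adequate means of these genes lay between the other 2 means, so this difference is by arithmetic the largest of their 3. ATF3 was 3.11-fold higher in deficient pigs (log2 difference 1.64 ± 0.93), NR4A3 2.72-fold (1.44 ± 0.54), FOS 2.40-fold (1.26 ± 0.79) and EGR1 2.03-fold (1.02 ± 0.35). IER2 differed by 0.16 ± 0.08 and NR4A2 by -0.20 ± 1.03. The median was 1.14, beside 0.00 over all probe sets, and 5 of the 6 genes were above 0, as were 50% of all probe sets.

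For 3 of the 6 genes (NR4A3, EGR1 and ATF3) every deficient pig lay above every excess pig, where 4.28% of all probe sets did so and 2.19% lay the other way. EGR1 and NR4A3 had an unadjusted p below 0.05 in limma (unadjusted p = 0.0211 and 0.0303), a level that 2.84% of all probe sets reached in that direction and 1.23% in the other. With array quality weights the limma unadjusted p was 0.212 for EGR1 and 0.258 for NR4A3. Without excess pig 10 it was 0.0754 and 0.104, and without deficient pig 1 it was 0.0734 and 0.0884, while NR4A3 had 0.0993 without deficient pig 3. With array SD as covariate it was 0.0493 for EGR1 and 0.0654 for NR4A3. No gene passed after adjustment, with 0.872 for EGR1, NR4A3, ATF3, FOS and IER2 and 0.970 for NR4A2 (limma adjusted p over all probe sets), where 0% of all probe sets passed. The 95% confidence intervals ran from 0.20 to 1.84 for EGR1 and from 0.18 to 2.71 for NR4A3, while those of ATF3, from -0.52 to 3.79, and of FOS, from -0.58 to 3.10, included 0.

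Without excess pig 11 the log2 differences were 1.74 for ATF3, 1.61 for NR4A3, 1.92 for FOS, 1.02 for EGR1, 0.11 for IER2 and 0.39 for NR4A2, so that all 6 were above 0 and the median was 1.32. Without excess pig 10 they were smaller, at 1.15 for ATF3, 1.01 for NR4A3, 0.66 for FOS and 0.78 for EGR1, with a median of 0.72. Without deficient pig 3 FOS differed by 0.61 and ATF3 by 1.23. The moderated F test over the 3 diets gave an adjusted p of 0.933 for 5 of the genes and 0.981 for NR4A2, and the smallest unadjusted values were 0.0518 for NR4A3 and 0.0590 for EGR1 (limma). The 3 comparisons share pigs pairwise, so their values for a gene are not independent.

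**Figure D4:**
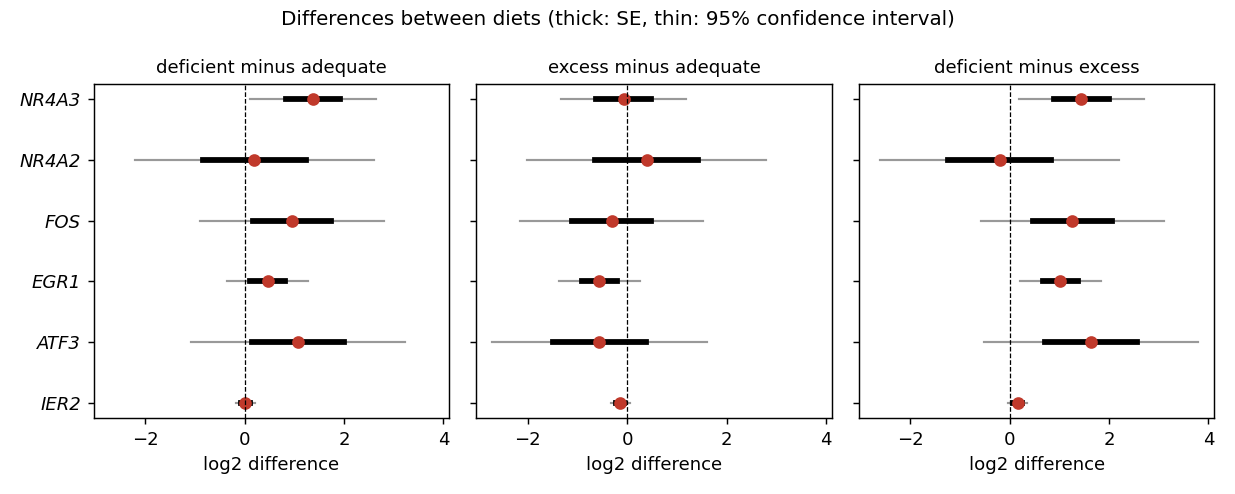
Log2 difference between diets (horizontal axis) for 6 immediate early genes (rows) in the 3 comparisons, each written as the group named first minus the second. Points are the differences, thick lines the SE and thin lines the 95% confidence interval from the limma model. The interval lies above 0 for NR4A3 in deficient minus adequate and for NR4A3 and EGR1 in deficient minus excess, before any adjustment, and NR4A2 has the widest intervals.

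Other transcription factors of the immediate early class were read from a list of 26, of which 17 were measured. None passed the adjusted threshold in any comparison. Between deficient and excess pigs 15 of the 17 were above 0 and 2 below (median 0.22), but without excess pig 11 the split was 9 above and 8 below (median 0.03). MYC, a driver of growth, differed by 0.67 ± 0.28, NFIL3, a leucine zipper repressor, by 0.93 ± 0.46, JUN, the AP-1 partner of FOS, by 0.50 ± 0.30 and ID1, an inhibitor of helix-loop-helix factors, by 0.42 ± 0.29. Of the 17 factors 2, MYC and NFIL3, had every deficient pig above every excess pig, as had 4.28% of all probe sets. Without deficient pig 3, MYC differed by 0.44, JUN by 0.24 and ID1 by 0.20, and without excess pig 10 JUN differed by 0.32 and ID1 by 0.23.

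In deficient against adequate pigs 7 of these 17 factors lay above 0 and 10 below (median -0.01). BHLHE40, a circadian repressor, differed by -0.27 ± 0.09, CEBPB by -0.26 ± 0.19, MYC by 0.60 ± 0.28 and NFIL3 by 0.78 ± 0.46, the last by 0.26 without adequate pig 6. In excess against adequate pigs 16 of the 17 lay below 0 (median -0.20). BHLHE40 differed there by -0.19 ± 0.09, CEBPB by -0.40 ± 0.19, CEBPD by -0.61 ± 0.39 and MAFF, a small MAF protein, averaged 4.58 in excess pigs and 5.58 in adequate pigs. Without excess pig 11 CEBPB differed by -0.20 and CEBPD by -0.22, and without adequate pig 5 MAFF differed by -0.36.

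Genes of other proteins (kinases, matrix proteins, feedback inhibitors) listed here as immediate early effectors were measured for 32 of 43. Whether each belongs to the immediate early class in this muscle was not tested. None passed the adjusted threshold in any comparison. In deficient against excess pigs 25 lay above 0 and 7 below, and the median was 0.26 (26 higher and a median of 0.20 without excess pig 11). AMD1, a decarboxylase of polyamine synthesis, differed by 0.92 ± 0.13, CYR61, a matricellular protein, by 1.14 ± 0.45, RND3, a small GTPase, by 0.43 ± 0.15 and BTG1, an inhibitor of proliferation, by 0.36 ± 0.14. BTG1 differed by 0.22 without excess pig 11. In deficient against adequate pigs 22 lay above 0 and 10 below, and the median was 0.07, close to the 0.01 of all probe sets. GADD45G, a growth arrest gene, differed by -1.03 ± 0.33 there, while IER3 differed by 0.57 ± 0.32, and by 0.18 without deficient pig 3. RND3 and AMD1 differed by 0.78 ± 0.15 and 0.45 ± 0.13 in that comparison. In excess against adequate pigs 9 lay above 0 and 23 below, and the median was -0.15 (-0.14 without excess pig 11). BTG1 differed by -0.52 ± 0.14, AMD1 by -0.46 ± 0.13, RND3 by 0.35 ± 0.15 and ARRDC3, an arrestin-domain protein, by -0.68 ± 0.30. ARRDC3 differed by -0.32 without excess pig 11.

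The MAP kinase phosphatases, which are induced by MAP kinase signalling and switch it off, were measured for 5 of 8 genes, and none passed. DUSP1, the classic immediate early phosphatase, differed by 0.43 ± 0.46 in deficient against adequate pigs, by -0.35 ± 0.46 in excess against adequate pigs and by 0.78 ± 0.46 in deficient against excess pigs. Its first value was 0.12 without adequate pig 7, and without excess pig 10 the last was 0.28 and the one before it changed sign to 0.15. DUSP10 differed by 0.08 ± 0.23, -0.43 ± 0.23 and 0.50 ± 0.23 in the same order, and every deficient pig lay above every excess pig, as for 4.28% of all probe sets. Without excess pig 10 its last 2 values were -0.20 and 0.28. DUSP2, DUSP4 and DUSP5 lay below the median level of all probe sets. DUSP4 differed by 0.18 ± 0.13, -0.10 ± 0.13 and 0.27 ± 0.13. DUSP2 differed by -0.03 ± 0.08 in deficient against adequate pigs, and DUSP5 by 0.20 ± 0.24 and -0.19 ± 0.24 in the 2 comparisons with excess pigs.

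The kinases and factors that act upstream of these genes, measured for 26 of 42, had a median of -0.01 in deficient against adequate pigs (12 higher, 14 lower), -0.11 in excess against adequate pigs (6 higher, 20 lower) and 0.13 in deficient against excess pigs (21 higher, 5 lower). The last 2 medians were -0.03 and 0.02 without excess pig 11, and 14 genes were higher in deficient than in excess pigs. None passed the adjusted threshold. MAPK8, the stress kinase JNK1, differed by 0.30 ± 0.11 in deficient against adequate pigs and by 0.35 ± 0.11 in deficient against excess pigs (0.23 without excess pig 11). CAMK2A, a calcium-dependent kinase, differed by -0.22 ± 0.11 in deficient against adequate pigs, by -0.42 ± 0.11 in excess against adequate pigs and by 0.20 ± 0.11 in deficient against excess pigs (0.091 without deficient pig 2). PPP3CB, a catalytic subunit of calcineurin, differed by -0.19 ± 0.11 and MEF2A by 0.10 ± 0.07 in deficient against adequate pigs. CRTC1, a coactivator of CREB, differed by -0.29 ± 0.15, PRKACA, the catalytic subunit of protein kinase A, by -0.43 ± 0.23 and EP300, an acetyltransferase, by -0.26 ± 0.14 in excess against adequate pigs, and without excess pig 11 by -0.17, -0.14 and -0.11. RPS6KA3, the ribosomal S6 kinase RSK2, differed by 0.38 ± 0.13 (0.22 without excess pig 11) and MEF2A by 0.18 ± 0.07 in deficient against excess pigs. Among 9 of 13 partners and corepressors, such as the retinoid X receptors and the EGR1 corepressor NAB2, the medians were 0.03, -0.22 and 0.20 in the same 3 comparisons, and -0.01 and 0.03 in the comparisons with excess pigs without pig 11.

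**Figure D5:**
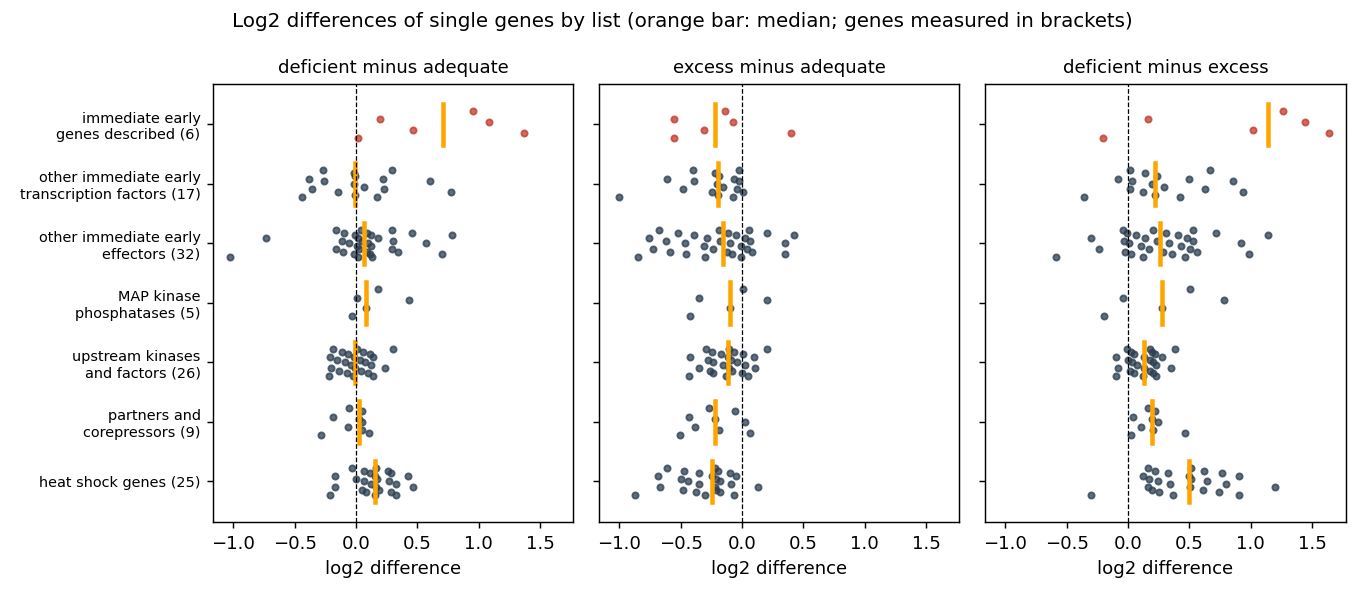
Log2 difference (horizontal axis) of single genes in 3 comparisons, with the number of measured genes of each list in brackets (rows). Points are genes, red for the 6 immediate early genes described and dark for the other lists, and orange bars are list medians. In deficient minus excess the median of the 6 genes is 1.14, against 0.22 and 0.26 for the other immediate early factors and effectors and 0.50 for heat shock genes.

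Genes of neighbouring responses gave values beside these. Heat shock genes, measured for 25 of 33, had medians of 0.16 in deficient against adequate pigs, -0.25 in excess against adequate pigs and 0.50 in deficient against excess pigs, and in the last 24 of 25 were higher (22 of 25 and a median of 0.30 without excess pig 11, which left a median of -0.16 in excess against adequate pigs). Their mean log2 value was 10.07 to 10.17 in deficient pigs, 9.85 to 10.09 in adequate pigs and 9.43 to 9.89 in excess pigs. Deficient and excess pigs did not overlap, while the adequate pigs overlapped both. The mean levels of the adipocyte and satellite cell markers, given below, separated these 2 groups in the same direction. Those of the skeletal muscle fibre markers separated them in the other, at 12.82 to 12.86 in deficient and 12.93 to 12.97 in excess pigs. Genes of the contraction and exercise response, measured for 14 of 19, had medians of -0.01, -0.10 and 0.16 in the same order, and the last 2 were -0.013 and 0.068 without excess pig 11. Glucocorticoid-responsive genes, measured for 11 of 14, had medians of -0.22, -0.59 and 0.02, and without excess pig 11 -0.09 and -0.15 in the comparisons with excess pigs. None of these lists had a gene past the adjusted threshold, and their part in the result was not tested.

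Markers of muscle fibres and of other cells that muscle holds were read beside these genes, and none passed the adjusted threshold in any comparison. Skeletal muscle fibre markers, 6 of 14 measured, had medians of -0.05, -0.01 and -0.11 in the 3 comparisons. The last 2 were 0.007 and -0.04 without excess pig 11. All 6 were lower in deficient than in excess pigs, with and without pig 11. In bulk tissue fewer cells of a type and less RNA per cell cannot be told apart. Adipocyte markers, 7 of 9 measured, all had values above 0 in deficient against excess pigs (median 0.68, and 0.70 without excess pig 11). Their mean levels were 6.93 to 7.08 in deficient pigs, 6.38 to 6.96 in adequate pigs and 6.20 to 6.36 in excess pigs. Only LEP lay below the median level of all probe sets. Satellite cell markers, 4 of 8 measured, had mean levels of 6.85 to 6.93 in deficient pigs, 6.59 to 6.75 in adequate pigs and 6.48 to 6.63 in excess pigs. Endothelial markers, 6 of 10 measured, overlapped, at 6.49 to 6.77 in deficient pigs and 6.39 to 6.82 in excess pigs, with CLDN5 below that median level. Macrophage and leukocyte markers, 11 of 13 measured, overlapped at 4.74 to 4.93 in deficient pigs and 4.70 to 4.94 in excess pigs, and 7 of them (CD14, AIF1, ITGAM, LYZ, CD79A, S100A8 and S100A9) lay below the median level. Fibroblast markers, 9 of 10 measured, all had values below 0 in deficient against adequate pigs (median -0.38) and in excess against adequate pigs (median -0.38, and -0.26 without excess pig 11). Their mean levels were 8.81 to 9.16 in deficient pigs, 9.17 to 9.62 in adequate pigs and 8.63 to 9.18 in excess pigs. Their median was 0.13 in deficient against excess pigs, and -0.11 without excess pig 11. Erythroid markers, 4 of 8 measured, all lay below the median level, with list medians of 0.01, 0.01 and -0.01 in the 3 comparisons (0.029 in excess against adequate pigs without pig 11). The medians of the smooth muscle and pericyte markers (5 of 7 measured) were -0.28, -0.30 and 0.01, the last 2 being -0.17 and -0.07 without excess pig 11, and those of the nerve and Schwann cell markers (3 of 8) 0.05, 0.07 and -0.02, the last being 0.03 without excess pig 11. The part of any of these cells in the values of the 6 genes was not tested.

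Among 6829 other named genes at or above the median level, ID1, PPL, LOC100620521, COQ10B, ARRDC4, DOPEY2, SLC39A7, JUN, MYC and RSRC2 followed the mean of the 6 standardised genes most closely over the 9 pigs. They were ranked by Pearson's r, so no p is given. ID1 had r = 0.951 (rho = 0.946), JUN 0.914 (rho = 0.833) and MYC 0.909 (rho = 0.933), and these 3 were also in the list of other immediate early transcription factors. JUN had values of 10.14, 9.70 and 10.70 in the deficient pigs, of 10.30, 9.54 and 9.81 in the adequate pigs and of 9.93, 9.33 and 9.79 in the excess pigs, with pig 3 the highest and pig 10 the lowest, as for FOS and NR4A3. ARRDC4, an arrestin-domain protein, had r = 0.930, with 10.34 in deficient pig 3, 9.81 in adequate pig 5 and 8.05 in excess pig 10, and COQ10B, of coenzyme Q function, had r = 0.933. PPL, DOPEY2 and SLC39A7 (r = 0.942, 0.929 and 0.920) varied little and had the same value in several pigs. Each of the 10 genes had r of 0.905 or more without excess pig 11. That pig lay near the middle of the mean of the 6 genes, at -0.23. Deficient pig 3 lay at 1.39 and excess pig 10 at -1.29. Leaving out pig 11 therefore does not show whether r rested on the extreme pigs.

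At the other end EFCAB7 (r = -0.945), NTNG2 (-0.899), ZBTB26 (-0.846), GTPBP10 (-0.827) and C2H19orf53 (-0.823) ran against the mean of the 6 genes. NR4A3 alone was followed most closely by RSRC2 (r = 0.957, rho = 0.983), STC1, which encodes stanniocalcin (0.922), SLC20A1, a phosphate transporter (0.918), ADAM9, a metalloprotease (0.910) and HNRNPDL, an RNA-binding protein (0.907), each over 9 pigs. SLC20A1 had 7.91, 7.00 and 8.11 in the deficient pigs, 7.60, 6.69 and 7.00 in the adequate pigs and 7.16, 6.34 and 6.66 in the excess pigs.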

How the data were processed

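Total RNA of 9 longissimus dorsi samples was hybridised to whole-transcript arrays, 1 per pig. The values deposited had been processed by the authors and were taken as log2 from their range; the submitters' processing notes list GCOS 1.2 and Partek with no role stated, and how background and normalization were handled is not given in the sources used here. Symbols came from the platform table: 13323 probe sets had 1 gene symbol, 357 several and 13878 none here. The 9 genes looked for were matched to the platform's own symbols. For the other lists and genes the symbols were updated through gene IDs. No coordinates or sequences are given, because the build of the array is not stated and no sequence table was used.

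The values were not normalized again. In limma 3.58.1 (lmFit and eBayes, R 4.3.3) each probe set received 1 coefficient per diet over the 9 arrays, with two-sided tests, Benjamini-Hochberg adjustment over 27558 probe sets and a threshold of 0.05. Correlations used exact two-sided permutation tests. The fit was run on simulated data with changes added to random probe sets. That check does not show whether a change in the 6 genes, most with a large spread between pigs, would be found. A gene's main probe set is the one with the highest mean. The genes and lists were chosen with earlier results of these data known, so no test over a list was made. Beside the 6 genes, the 4 with the smallest p per list and comparison are named for the 4 lists of other immediate early genes, phosphatases and upstream factors, and the other lists are given by counts and medians. The 3 arrays per group limit the precision, and the limma p-values set each difference of diet means against the spread between pigs. Alternatives were repeated quantile normalization, median centring, an intensity trend, array quality weights, the SD of each array as covariate, filters on probe sets, averaging of probe sets, only the arrays compared, and leaving out each pig.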

Additional observations from a re-analysis of the deposited data

How the results depend on the processing

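With 3 pigs per diet the SD between pigs of the same diet, up to 1.43 on the log2 scale, limits every difference. No paired analysis was possible because the pig numbers of the 3 diets are all different. Under the 18 alternatives none of the 6 genes passed the adjusted threshold, and 11 of their 18 differences (6 genes in 3 comparisons) kept their sign. The intensity trend, the filters on probe sets and the use of only the arrays compared cannot change a difference of group means. Leaving out a pig of the diet not compared cannot change it either. The kept signs are therefore informative only for the remaining settings. Averaging probe sets could change nothing for the 6 genes, which have 1 each, and IER2 has no value with the dimmest 25 percent left out. Array quality weights, which were 0.192 to 0.678 for the excess pigs and 0.902 to 2.46 for the others, gave 1 probe set past the threshold in deficient against adequate pigs and 1 in the F test over the diets, and the restriction to probe sets with 1 symbol gave 1 in deficient against excess pigs, in place of 0; none is among the 6 genes.

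NR4A3 in excess against adequate pigs was 0.078 after a repeated quantile normalization, 0.18 with array quality weights and 0.047 with array SD as covariate, in place of -0.07. With array quality weights NR4A2 and IER2 in deficient against adequate pigs were -0.19 and -0.0064. With the covariate DUSP5 was -0.0896 in excess against adequate pigs and 0.0398 in deficient against excess pigs. Leaving out 1 pig at a time gave medians of the 6 genes of 0.38 to 1.02 in deficient against adequate pigs, -0.46 to 0.11 in excess against adequate pigs and 0.72 to 1.39 in deficient against excess pigs. Genes without overlap numbered 0 to 3, 0 to 2 and 3 to 4, where fewer pigs make separation easier by construction, and 2 in the last comparison after quantile normalization or median centring. The share of all probe sets without overlap was not counted under these settings, so nothing is read from these counts. Single genes ran in deficient against adequate pigs from -0.75 to 0.83 for NR4A2, from -0.039 to 0.072 for IER2, from -0.084 to 0.028 for DUSP2 and from -0.081 to 0.24 for DUSP10. In excess against adequate pigs they ran from -0.97 to 0.29 for FOS, from -0.54 to 0.98 for NR4A2, from -0.37 to 0.36 for NR4A3, from -1.59 to 0.31 for ATF3, from -0.76 to 0.15 for DUSP1 and from -0.088 to 0.36 for DUSP5, and in deficient against excess pigs from -0.99 to 0.44 for NR4A2 and from -0.35 to 0.10 for DUSP5. Apart from the changed samples, the cause was not tested. The values of the gene lists without excess pig 11 were added after seeing the data.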
